A study of Homo sapiens with 2 samples.

Results

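Chemokines and their receptors were examined in the human oral cancer line Ca9-22, established from a squamous carcinoma of the gingiva. The cells carried either an empty vector (Ca9-22-EV) or a PTHLH vector (Ca9-22-PTHLH). PTHLH encodes parathyroid hormone-like hormone, a secreted ligand of the parathyroid hormone receptor. Both cultures were stably transduced with lentivirus and kept under blasticidin, so each was a selected population and not untreated Ca9-22 cells. Total RNA of 1 culture of each kind was hybridised to 1 Affymetrix U133 array, and the deposited value is an intensity in arbitrary units for each probe set, that is for several short probes that together read a transcript. The titles name Ca9-22 and the vectors, whereas a description field names CX-1 cells and RAB3C and was not followed. The list held 36 genes, 26 ligands and 10 receptors, chosen by name from the chemokine families. Of these, 35 had at least 1 probe set assigned to them alone, 58 probe sets in all, among 19775 genes measured on the arrays. CCL3, a macrophage chemokine, is represented by a probe set shared with its gene copies and is not analysed here.

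Chemokines are small secreted proteins that guide leukocytes along a gradient. They are named CXC, CC or CX3C after the spacing of their first cysteines, and most act through receptors coupled to inhibitory G proteins. Squamous epithelium is known to make the neutrophil attractants of the CXC family when interleukin-1 or TNF activates NF-kB, and the ligands of CXCR3 when interferon activates STAT and IRF factors. ACKR3, by contrast, is an atypical receptor that binds and removes CXCL12 and CXCL11 without coupling to G proteins.

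No member differed by as much as 1.5-fold between the arrays, in either direction. Over all 19775 genes, 1.97% lay at least 1.5-fold higher and 3.52% at least 1.5-fold lower on the PTHLH array, so that a list of this size would hold few such genes at the background rate, and the absence of any is read as no more than that. None of the 58 probe sets of the members passed 1.5-fold either, with log2 differences between -0.41 and 0.46, 29 above 0, 27 below 0 and 2 identical on both arrays. The median log2 difference over the 35 members was 0.04, with 18 members above 0 and 17 below, and that over all genes was 0. With 1 array per condition there is no spread between cultures, no test and no p-value. An error could be had only within the arrays, from how far a gene's 2 brightest probe sets disagreed, and it corresponds to an SD of a single log2 difference of 0.23 over 10523 genes, 0.21 over 1978 genes with both probe sets at or below the array medians, and 0.20 over the 16 members with at least 2 probe sets. This SD covers differences between probes and not between cultures.

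Most members were dim. Over all probe sets, the arrays had median intensities of 19.5 (empty vector) and 19.4 (PTHLH). Of the 35 members, 25 lay below both medians, 1 (CXCR4) lay between them and 9 (25.7%) lay above both, against 65.6% of all genes. These 9 were CXCL3, CXCL9, CXCL16, CX3CL1, CCL26, CCL28, CXCR3, CXCR5 and ACKR3, and none of them was at least 1.5-fold different. The number depends on the choice of probe set, since it was 5 (ACKR3, CCL26, CXCL16, CXCL3 and CXCL9) when each gene was given the median over its probe sets. Among all 12982 genes above both medians, 2.5% were at least 1.5-fold higher and 4.36% at least 1.5-fold lower. The arrays carry no detection call here, and the median is only a working limit. Leukocyte genes also passed it. The monocyte receptor CSF1R had an intensity of 37.2 and 31.7, and the T cell receptor subunit CD3D one of 27.7 and 29.4, with the empty vector first. Raising the limit to percentile 60 of each array left ACKR3, CCL26 and CXCL16 above it. In a bulk RNA sample, fewer cells that express a gene and less RNA per cell cannot be told apart.

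**Figure D1:**
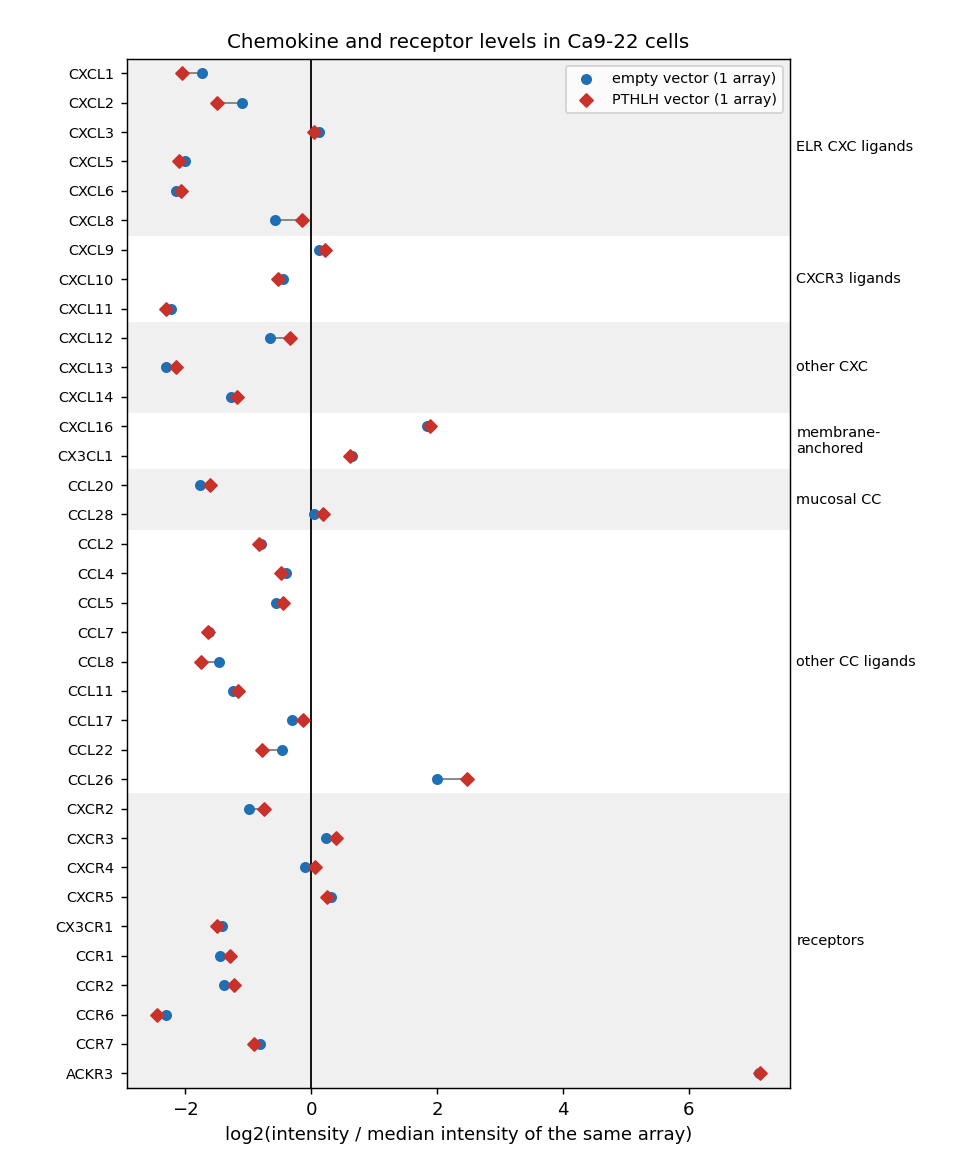
Level of each measured member by its brightest probe set, as log2 of the intensity over the median of the same array, with blue circles for the empty vector array and red diamonds for the PTHLH array (1 array each) and members grouped by role. Levels are read within a row, since probe sets differ in brightness; ACKR3 lies at 7.12 on both arrays, CCL26 at 4.01 times the median with the empty vector and 5.53 times with PTHLH, and 25 members lie left of the black line at the median on both arrays.

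The neutrophil-attracting CXC ligands carry a glutamate-leucine-arginine (ELR) motif before the first cysteines and signal through CXCR2. All 6 are encoded on chromosome 4, and the promoters of all 6 in the RefSeq table (GRCh38.p14, from 250 bases before to 50 bases after a transcription start) held the letters GGANTTTCC, a form of the NF-kB site. The first base of the match lay between 91 and 77 bases before the start, that is at positions -91 to -77. The stretches of 99 bases around it are shown because this site is the feature that these ligands share, written 5′ to 3′ on the coding strand with the match in capitals. They lie at chr4:73740433-73740531 (plus strand, CXCL8), chr4:73836544-73836642 (plus, CXCL6), chr4:73869270-73869368 (plus, CXCL1), chr4:73998714-73998812 (minus, CXCL5), chr4:74038714-74038812 (minus, CXCL3) and chr4:74099219-74099317 (minus, CXCL2).
CXCL8: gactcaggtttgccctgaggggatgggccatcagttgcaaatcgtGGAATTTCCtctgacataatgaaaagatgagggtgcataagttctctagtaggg
CXCL6: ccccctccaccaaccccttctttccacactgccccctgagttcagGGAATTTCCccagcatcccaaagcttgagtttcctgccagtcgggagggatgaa
CXCL5: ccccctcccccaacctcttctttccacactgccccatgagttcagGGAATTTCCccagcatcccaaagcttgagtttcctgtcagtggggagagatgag
CXCL1: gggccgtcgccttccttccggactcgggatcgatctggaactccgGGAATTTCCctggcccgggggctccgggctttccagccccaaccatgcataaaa
CXCL3: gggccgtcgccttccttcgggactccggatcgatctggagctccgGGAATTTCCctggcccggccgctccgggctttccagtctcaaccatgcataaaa
CXCL2: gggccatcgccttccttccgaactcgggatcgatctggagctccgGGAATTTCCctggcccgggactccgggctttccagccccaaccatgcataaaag

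Compared base by base without gaps, the stretches of CXCL1 and CXCL3 were identical at 92 of 99 bases, as were those of CXCL5 and CXCL6, and CXCL8 shared between 25 and 35 of 99 bases with the other 5. The same letters, searched on both strands, were found in 577 of 35116 RefSeq promoters (1.64%). The 27 members with a promoter in the table had 37 promoters, of which 8 held them. These belonged to 8 members, the 6 ELR ligands and, on the opposite strand, CXCL10 and CXCL11. A match describes letters only, and binding was not measured.

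These ELR ligands were dim in both cultures. CXCL1, the melanoma growth-stimulating chemokine, measured 5.87 with the empty vector and 4.67 with PTHLH, a log2 difference of -0.33 (intensities are given in this order from here on). CXCL2, which is closely related to it, had 9.14 and 6.88 (-0.41). Both lay below the array medians, so these differences are between values near the bottom of the scale. Their close relative CXCL3 lay just above the medians at 21.2 and 20.0 (-0.09). CXCL8, or interleukin-8, had 13.1 and 17.6, the other way, with a log2 difference of 0.43, but its second probe set had 5.40 and 5.78 (0.10). For CXCL2 the other probe sets had log2 differences of -0.39 and 0.30, the latter from 5.00 to 6.15. CXCL5 had 4.86 and 4.54 (-0.10), and a nearly equally bright probe set of it had 4.84 and 3.65 (-0.41). Its remaining probe set had -0.10, and CXCL6 had 4.41 and 4.62 (0.07). The median log2 difference over the 6 ELR ligands was -0.09, and 1 of the 6 lay above both medians. Because CXCL1, CXCL2 and CXCL3 are close copies, a probe set of one may bind the transcript of another. The probe set used for CXCL2 and that used for CXCL8 are marked by the suffix x as able to cross-hybridise.

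**Figure D2:**
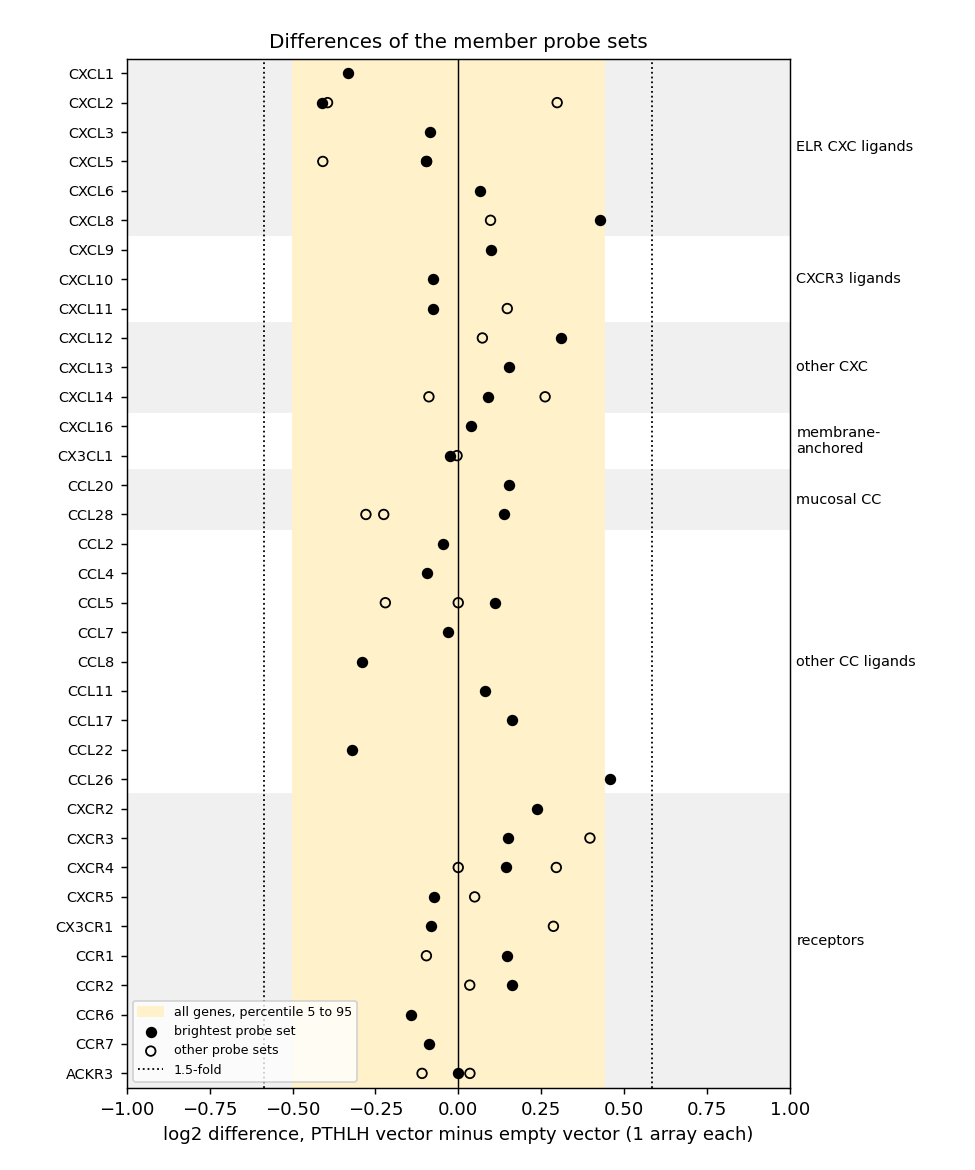
Log2 of the PTHLH over the empty vector intensity for all 58 probe sets of the members, with filled circles for the brightest probe set of a gene and open circles for its others, dotted lines at 1.5-fold and a yellow band for percentiles 5 to 95 of all genes (-0.50 to 0.44). All points lie between the dotted lines, from -0.41 to 0.46, and of the 16 members with several probe sets 9 have points on both sides of 0.

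The ligands of CXCR3, which attract T and NK cells, were also low. CXCL9 had an intensity of 21.2 and 22.7 (0.10), CXCL10 had 14.3 and 13.5 (-0.08) and CXCL11 had 4.15 and 3.94 (-0.08 by its brightest probe set and 0.15 by the other). Only CXCL9 lay above both medians, by less than 1.2-fold. Their promoters held other sites as well. CXCL9 and CXCL10 each had a match to GAAANNGAA, a part of the interferon response element. It was found in 8.11% of all promoters and in 8 of the 37 member promoters, those of 8 members. The ELR ligands CXCL2 and CXCL3 were among these members, and CXCL11 was not. CXCL11 had a match to TGANTCA, the AP-1 site. It was found in 7.71% of all promoters and in 5 of the 37 member promoters, those of 5 members, CXCL8 among them. No matches of different motifs overlapped. The stretches of CXCL10 (chr4:76023620-76023718, minus strand) and CXCL11 (chr4:76036092-76036190, minus strand) are shown for comparison with the ELR ligands, with the NF-kB-like match in capitals. It reads GGAAATTCC here, the reverse complement of the form in the ELR ligands.
CXCL10: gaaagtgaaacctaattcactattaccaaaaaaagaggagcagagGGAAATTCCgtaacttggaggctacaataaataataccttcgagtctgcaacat
CXCL11: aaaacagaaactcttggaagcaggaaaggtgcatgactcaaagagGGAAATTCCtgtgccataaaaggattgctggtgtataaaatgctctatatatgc

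The other genes with the NF-kB-like letters in a promoter put these levels in context. Of 347 genes with them, the members included, 7 were at least 1.5-fold higher and 9 at least 1.5-fold lower, with a median log2 difference of -0.02, and 69.5% lay above both array medians. Over all genes, 1.97% were higher, 3.52% lower and 65.6% above both medians, so these genes lay near the background. Of the 8 members among them, only CXCL3 lay above both medians, and none was at least 1.5-fold different.

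Other CXC ligands were below both medians. CXCL12, the stromal ligand of CXCR4 and ACKR3, had 12.3 and 15.3 (0.31), while the second probe set gave 0.07. The B cell attractant CXCL13 had 3.95 and 4.39 (0.15). CXCL14, a chemokine of normal epithelium, had 8.06 and 8.57 (0.09), with its other probe sets at 0.26 and -0.09. All 3 had a difference above 0 by the brightest probe set, though all were dim.

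The membrane-anchored ligands, whose soluble forms are released by ADAM proteases, were both above the medians. CXCL16, which binds CXCR6, had an intensity of 69.8 with the empty vector and 71.7 with PTHLH (a log2 difference of 0.04), that is 3.58 times the median on the empty vector array. CX3CL1, or fractalkine, had 30.5 and 30.0 (-0.02), and its second probe set was dim at 8.33 and 8.31. Both ligands thus had nearly the same value in the 2 cultures.

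CCL26, or eotaxin-3, a ligand of the eosinophil receptor CCR3, had an intensity of 78.2 with the empty vector and 107 with PTHLH. This was a 1.37-fold difference (log2 0.46), the largest of any member, and it rests on a single probe set. It lay above percentile 95 of the differences of all genes (0.44), below that of the genes above both medians (0.47), and inside 1.5-fold. CCL28, a mucosal chemokine of epithelium, had 20.2 and 22.2 by its brightest probe set (0.14), and 22.9 and 18.9 by the second (-0.28), so its direction depended on the probe set. The epithelial ligand of CCR6, CCL20, was dim at 5.72 and 6.36 (0.15).

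The other CC ligands lay below both medians. The monocyte attractant CCL2 had an intensity of 11.2 and 10.9 (-0.05). Its relatives CCL7 and CCL8, which also attract monocytes, had 6.36 and 6.22 (-0.03) and 7.04 and 5.76 (-0.29). CCL4 and CCL5 are made by activated T cells and other leukocytes. The former had 14.8 and 13.9 (-0.09), and the latter 13.3 and 14.3 (0.11), with its other probe sets at 0 and -0.22. CCL11, or eotaxin, acts on eosinophils and had 8.21 and 8.68 (0.08). CCL17 and CCL22 both bind CCR4, yet lay on opposite sides of 0. CCL17 had 15.8 and 17.7 (0.16), whereas CCL22 had 14.1 and 11.3 (-0.32). The lowest log2 differences were those of CCL22 (-0.32) and CCL8 (-0.29), and over the 9 measured CC ligands of this kind, CCL26 included, the median was -0.03 with 4 above 0 and 5 below.

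ACKR3 was the receptor far above the medians. Its intensity was 2712 and 2709, 139 times the median on both, which put it above 99.1% of all probe sets. The log2 difference was 0 to 2 decimals. A second probe set, also above the medians, had 117 and 120 (0.04), and the remaining, dim one had 15.9 and 14.8 (-0.11). CXCR4, the signalling receptor for the same ligand, had 18.3 and 20.2 (0.14), and its other probe sets were dimmer, one with the identical value of 11.8 on both arrays and one with 3.86 and 4.74 (0.30). All 3 probe sets of ACKR3 thus differed little between the cultures, although they differed widely in brightness.

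The remaining receptors, which are mostly known from leukocytes, were near or below the medians. CXCR3 had an intensity of 23.0 and 25.5 (0.15), and 7.87 and 10.4 by its dimmer probe set (0.40). CXCR5, a chemokine receptor of B cells, had 24.4 and 23.1 (-0.07, and 0.05 by its dimmer probe set). The brightest probe sets of CXCR3, CXCR4 and CXCR5 carry the suffix s, for probes shared between transcripts. CXCR2, the receptor of the ELR ligands, had 9.81 and 11.6 (0.24). By their brightest probe sets, CX3CR1, CCR1, CCR2, CCR6 and CCR7 had intensities between 3.55 and 11.1 and log2 differences between -0.14 and 0.16. The second probe set of CX3CR1, the fractalkine receptor, had 6.44 and 7.86 (0.29), while those of CCR1 and CCR2 had -0.10 and 0.03. Over the 10 receptors the median log2 difference was 0.07, with 5 above 0 and 5 below.

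In all, 8 members differed by more than the SD of 0.23 between probe sets. CXCL1, CXCL2, CCL8 and CCL22 were lower with PTHLH, and CXCL8, CXCL12, CCL26 and CXCR2 were higher. Of these only CCL26 lay above the array medians. They make up 22.9% of the measured members, against 37.0% of all genes beyond the same limit.

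**Figure D3:**
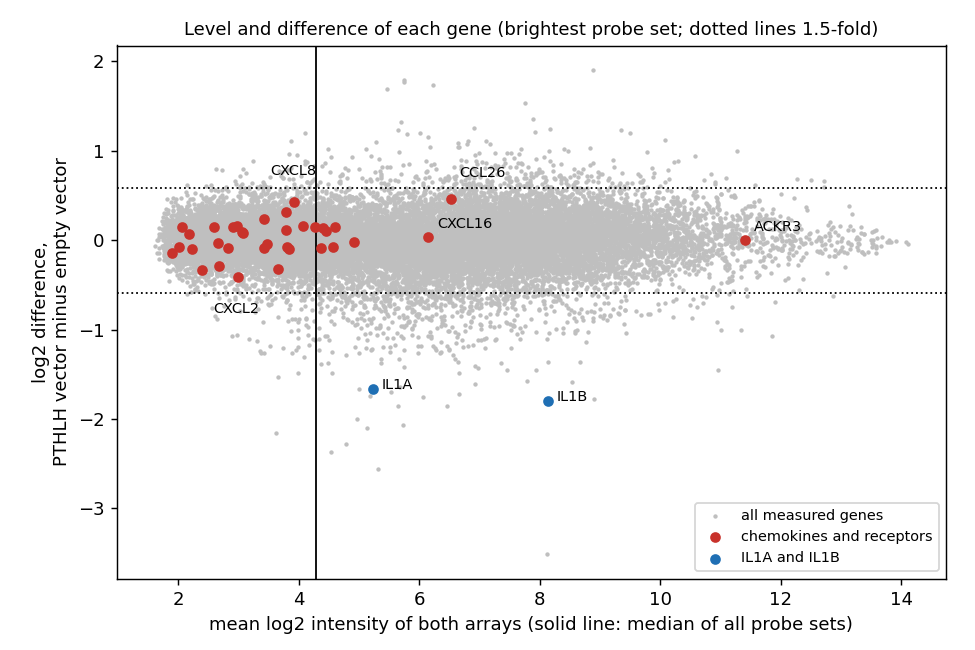
Log2 of the PTHLH over the empty vector intensity against mean log2 intensity of both arrays for the brightest probe set of each of 19775 genes (grey), with the 35 members in red, IL1A and IL1B in blue, dotted lines at 1.5-fold and a solid line at the median of all probe sets. The members lie within 1.5-fold and mostly left of the solid line, with ACKR3, CCL26 and CXCL16 the furthest to its right, while IL1A (-1.67) and IL1B (-1.80) lie below.

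Lists of genes known to act upstream of chemokines held some that passed 1.5-fold. These lists were chosen with earlier results of these data known, so their counts only describe the arrays. Over all genes, 1.97% were at least 1.5-fold higher and 3.52% lower. Among those above both medians, the shares were 2.5% and 4.36%. Of 27 measured cytokines and receptors that induce chemokines, 4 were at least 1.5-fold lower and none higher. The median of this list was 0.06, with 17 genes above 0 and 10 below. Among the 4 lower genes were IL1B, from 525 to 151 (log2 -1.80), IL1A, from 66.6 to 20.95 (-1.67, against -0.44 for the dimmer probe set), and the flagellin receptor TLR5, from 76.7 to 39.6 (-0.95). In the NF-kB list, 1 of 20 was at least 1.5-fold higher, NFKB1 from 80.4 to 137 (0.77), and none lower. The kinase IRAK1 had 0.48 and the adaptor TRAF1 had -0.39, and the median of the list was -0.06. Of 11 AP-1 and C/EBP factors, 5 were at least 1.5-fold lower and none higher, with a median of -0.57. Of these 5, 4 lay above both medians. JUN went from 650 to 252 (-1.37), ATF3 from 137 to 59.0 (-1.21, though its dimmer probe sets had -0.01 and 0.01) and JUNB from 773 to 452 (-0.77). Of 15 interferon pathway genes, 3 were at least 1.5-fold lower and 1 higher, with a median of -0.16. The higher one was OAS2, from 15.9 to 24.4 (0.61), which did not lie above both medians. IRF7 (-1.04), GBP2 (-0.77) and IRF9 (-0.61) were the lower ones, by the brightest probe set, while the other probe set of GBP2 had -0.29. In these 4 lists 18 of 27, 20 of 20, 10 of 11 and 13 of 15 genes lay above both medians, against 65.6% of all genes.

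Of 25 measured genes of chemokine receptor signalling, 4 were at least 1.5-fold lower and none higher, with a median of 0. Over all genes 3.52% were at least 1.5-fold lower, as were 4.36% of those above both medians. The list was chosen with earlier results of these data known, so its share cannot be read as a result, and none was tested. GNG2 (-1.04), a G protein gamma subunit, and GRK3 (-0.98), a receptor kinase, were the lowest, but other probe sets of GNG2 lay between -0.12 and 0.23 and those of GRK3 between -0.13 and 0.09. RAC2, a GTPase of leukocyte migration, had -0.68, and -0.59 by its second probe set. Of 6 regulators of cytokine mRNA decay, ZFP36L2 was higher, from 319 to 654 (1.03, with other probe sets between 0.09 and 0.98). Also named by rule, HNRNPD had 0.47 and ZFP36 had -0.41. The 8 other probe sets of HNRNPD lay between -0.44 and 0.74, so its direction depended on the probe set. Of 11 genes that shed, trim or bind chemokines, none passed 1.5-fold by the brightest probe set. Among those above the medians, NDST1 (0.40) and SDC1 (0.39) were the highest, and EXT1 had -0.34. Other probe sets of EXT1 had -0.62, past 1.5-fold, and -0.53, while those of NDST1 lay between -0.05 and 0.29. The remaining chemokine family genes, 25 measured of 31, resembled the members in level, with 4 above both medians, and had 1 at least 1.5-fold lower, the dim receptor CCR10 (from 21.3 to 12.5), and none higher. The 3 with the largest differences above the medians were CXCL17 (0.30), CXCR1 (-0.05) and PF4 (0.04).

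All 6 measured squamous markers lay above both medians, a limit that 65.6% of all genes pass. Their intensities ranged from 390 to 12880 with the empty vector and from 447 to 13240 with PTHLH, and the basal keratin KRT5 had 7823 and 10228. Of 11 measured leukocyte markers 4 lay above the medians, and their summed intensity was 198 and 195 on the empty vector and PTHLH arrays. The defining leukocyte gene PTPRC (CD45) had 7.05 and 7.84. Of 8 fibroblast markers 4 lay above the medians, with a sum of 2561 and 1775 that was mostly COL1A1 (2437 and 1652), and of 5 endothelial markers 3 did, with a sum of 216 and 217. By the brightest probe set no marker was at least 1.5-fold different, but another probe set of COL1A1 had a log2 difference of -0.66, past that threshold. No measured marker is listed at an intensity of 0.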

How the data were processed

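Biotin-labelled RNA of 1 empty vector and 1 PTHLH culture of Ca9-22 cells was measured on Affymetrix U133 arrays. The authors deposited 1 intensity per probe set on a linear scale. How background was corrected, arrays were normalized and probes were summarised is not given in the sources used here. Intensities were turned to log2 values and subtracted without further normalization. Probe sets were named through the platform annotation, with symbols updated by gene identifier (GRCh38.p14). Of 54675 probe sets, 41097 had 1 symbol and were used, 1801 had several and 11777 are unnamed here. On 3367 probe sets (6.16%) both arrays held an identical value. Each gene was represented by its brightest probe set. At least 1.5-fold, the study's threshold, was counted in each direction, and genes above the median of both arrays were set apart from dim ones. No test was run, since 1 array per condition leaves no spread, and precision is limited by having 1 array each.

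The members and gene lists were chosen with earlier results of these data known. All members are named, and of each other list up to 3 genes above both medians with the largest absolute difference. CSF1R, PTPRC, CD3D, COL1A1, KRT5, CCR10 and OAS2 were named outside that rule, as markers or as the only gene of a count. The counting was tested on simulated data with planted 2-fold changes. Their noise was set below the probe set SD of 0.23, so the test checks the code only. Motifs were searched in RefSeq promoters, of which 27 of 36 members had at least 1. Alternatives were quantile normalization, centring, other choices of probe set, a floor at percentile 40, a 2-fold threshold and a limit at percentile 60. Values were computed in Python 3.11.15 with numpy 2.4.6 and pandas 2.3.3, and drawn with matplotlib 3.10.9.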

Additional observations from a re-analysis of the deposited data

How the results depend on the processing

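Quantile normalization, which alone could have altered it, left 0 members at least 1.5-fold higher and 0 lower, with differences between -0.42 and 0.48. The other alternatives could not have given another count and say nothing of its stability. No member probe set passed 1.5-fold, so other choices of probe set (32 members left without the suffixes x and s), a floor at percentile 40 and a 2-fold threshold had to give 0, and centring moved no value. At 1.5-fold, the genes counted higher among all genes ranged from 248 to 689 and those counted lower from 444 to 984. The number of members above both array limits moved from 9 to 5 with the median over probe sets and to 3 with a limit at percentile 60. It was 6 with the probe set of largest change (without ACKR3, CCL28 and CXCR3) and 6 without the suffixes x and s (without CCL28, CXCR3 and CXCR5). The median log2 difference of the measured members stayed between -0.0029 (floor) and 0.07 (quantile normalization). Of 54 values of single members above the medians, 49 stayed within the probe set SD of 0.23 and 5 moved further, all of CCL28 (to -0.28 or -0.22) or CXCR3 (to 0.40). Differences of dim members are between values close to the array's low end, and the floor narrowed their range to between -0.11 and 0.46 over all members. No paired analysis was possible because each condition has 1 array.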
